A study of Mus musculus with 4 samples.

Results

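Spp1 macrophages are macrophages of the te2 prostate that carried transcripts of Spp1, which encodes the secreted phosphoprotein osteopontin, and of Gpnmb, which encodes a glycoprotein of lysosomal membranes. A te2 cell was counted among them when Spp1 and Gpnmb together had at least 3 unique molecular identifiers (UMIs) and made up at least 0.1% of its UMIs, and when the macrophage genes Lyz2, Cd68, C1qa, C1qb and C1qc together had at least 3. Only cells with 500 or more UMIs and no more than 20% mitochondrial counts were considered. The rule found 61 cells, 48 in te2 replicate 1 and 13 in te2 replicate 2, among the 4436 te2 cells that passed these filters, 8091 such cells in the series and 11245 cells in all. They were set beside 169 C1q macrophages of the same animals, 86 in replicate 1 and 83 in replicate 2, which had at least 2 UMIs of the C1q genes and no more than 2 of Spp1 and Gpnmb. Since the UMIs of these 7 genes chose the cells, their values between these sets are given as a description.

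The series concerns an imbalance of steroid hormones in the ventral prostate. Animals of genotype wt on the C57BL6j strain fell into a te2 group and a sham group of 2 each, and glands were taken 2 weeks after pellets had been placed. The labels used here do not spell out te2 and give no age. Each library was 1 animal, whose paired lobes were digested in the cold with a bacterial protease before 7000 cells were loaded on a droplet platform that counts 3′ ends of transcripts by UMI.

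Tissue macrophages clear dead cells and debris, and digest what they take up in acid lysosomes. Macrophages that handle much lipid have been described in adipose tissue, fatty liver and arterial plaques under the name lipid-associated or foam macrophages, and are known for Trem2, a lipid receptor, for fatty acid binding proteins, for cathepsins and for Spp1 and Gpnmb. The C1q genes encode the first component of the complement cascade and mark tissue macrophages, while osteopontin acts outside the cell on integrins and CD44.

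The label was checked on macrophage markers that the rule did not use. Tyrobp, an adaptor of myeloid receptors, stood at 4293 and 2654 CPM, scaled by totals, in Spp1 macrophages, against 16.2 and 15.3 CPM in te2 cells outside the macrophage and Retnla myeloid sets. Csf1r, the receptor for the macrophage growth factor CSF1, stood at 328 and 88.2 CPM against 1.33 and 0.807 CPM. Of the genes in the rule, C1q transcripts of at least 2 UMIs were present in 58 of the 61 cells, with 1 or none in 3 cells of replicate 1, and each of the 61 cells had both Spp1 and Gpnmb. Fabp5, which encodes a fatty acid binding protein, Ctsd, which encodes the lysosomal protease cathepsin D, and Lgals3, which encodes the lectin galectin 3, had been named as further markers of these cells from these data, so their values too are a description. Fabp5 was found in 46 of 48 and 13 of 13 Spp1 macrophages, against 11 of 86 and 11 of 83 C1q macrophages. With cells thinned to 1000 UMIs, Fabp5 was found in 43 of 45 and 12 of 12 Spp1 macrophages and in 6 of 72 and 2 of 62 C1q macrophages. Te2 cells outside both macrophage groups, which include epithelium, had Fabp5 in 7.33% and 9.24% after the same thinning, at a median depth of 3548 and 4264 UMIs before it. The shares in C1q macrophages (8.33% and 3.23%) lay near those in these other cells in replicate 1 and below them in replicate 2. The shares in Spp1 macrophages lay above them in both. Whether Fabp5 in C1q macrophages came from RNA of other cells was not tested.

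Spp1 and Gpnmb made up a median of 1.36% of the UMIs of a cell in replicate 1 (range 0.1004 to 9.56) and 1.22% in replicate 2 (0.122 to 3.5). Few cells lay near the threshold of 3 UMIs. Of the members, 2 and 0 cells had 3 to 5 UMIs of both genes together, while 44 and 13 had 10 or more. Some deep cells lay nearer to the limit of 0.1%. In replicate 2 the cells of lowest share carried 46 to 80 UMIs of epithelial genes. Just outside the rule, 2 and 3 macrophages had 1 or 2 UMIs, and 2 and 0 had at least 3 UMIs that came to less than 0.1%. No UMI of either gene was seen in 85 of 86 and 80 of 83 C1q macrophages. The upper limit of 2 UMIs in C1q macrophages is set by their definition.

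Several technical measures moved with the cell sets. Spp1 macrophages were the deeper cells, with a median of 4273.5 and 8990 UMIs against 1710.5 and 1868 in C1q macrophages, and had 1.91% and 3.06% mitochondrial counts against 3.17% and 3.65%. Epithelial transcripts were unevenly spread. At least 2 UMIs of 9 keratin and epithelial junction genes were present in 7 of 48 and 6 of 13 Spp1 macrophages, against 18 of 86 and 14 of 83 C1q macrophages, and the 6 cells held 61.7% of the UMIs of their set. Over the luminal marker list, with 7 markers detected in each set of Spp1 macrophages and Pbsn at 0, the summed level was 1406 and 33400 CPM in Spp1 macrophages and 12960 and 11730 CPM in C1q macrophages. Results between the sets are therefore also given without cells with 2 or more epithelial UMIs, which leaves 41 and 7 Spp1 macrophages and 68 and 69 C1q macrophages. Scrublet called 1 and 0 of the Spp1 macrophages doublets. The 4 libraries shared 1 to 5 barcodes per pair, none of them of a Spp1 macrophage. Markers of dendritic cells summed to 3 and 0 counts in Spp1 macrophages. Those of T and NK cells had 2 or more UMIs in 0 of 48 and 4 of 13 Spp1 macrophages, against 1 of 86 and 2 of 83 C1q macrophages. Neutrophil markers had 2 or more UMIs in 7 of 48 and 2 of 13, against 5 of 86 and 1 of 83 of the shallower C1q macrophages. The 5 osteoclast markers summed to 189 and 152 CPM in Spp1 macrophages against 34.6 and 103 CPM in C1q macrophages. In Spp1 macrophages these were counts of Acp5, which lysosomes of other macrophages also hold, and of Ctsk, while Calcr, Ocstamp and Dcstamp had no count. The part of these transcripts in the results was not tested.

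**Figure D1:**
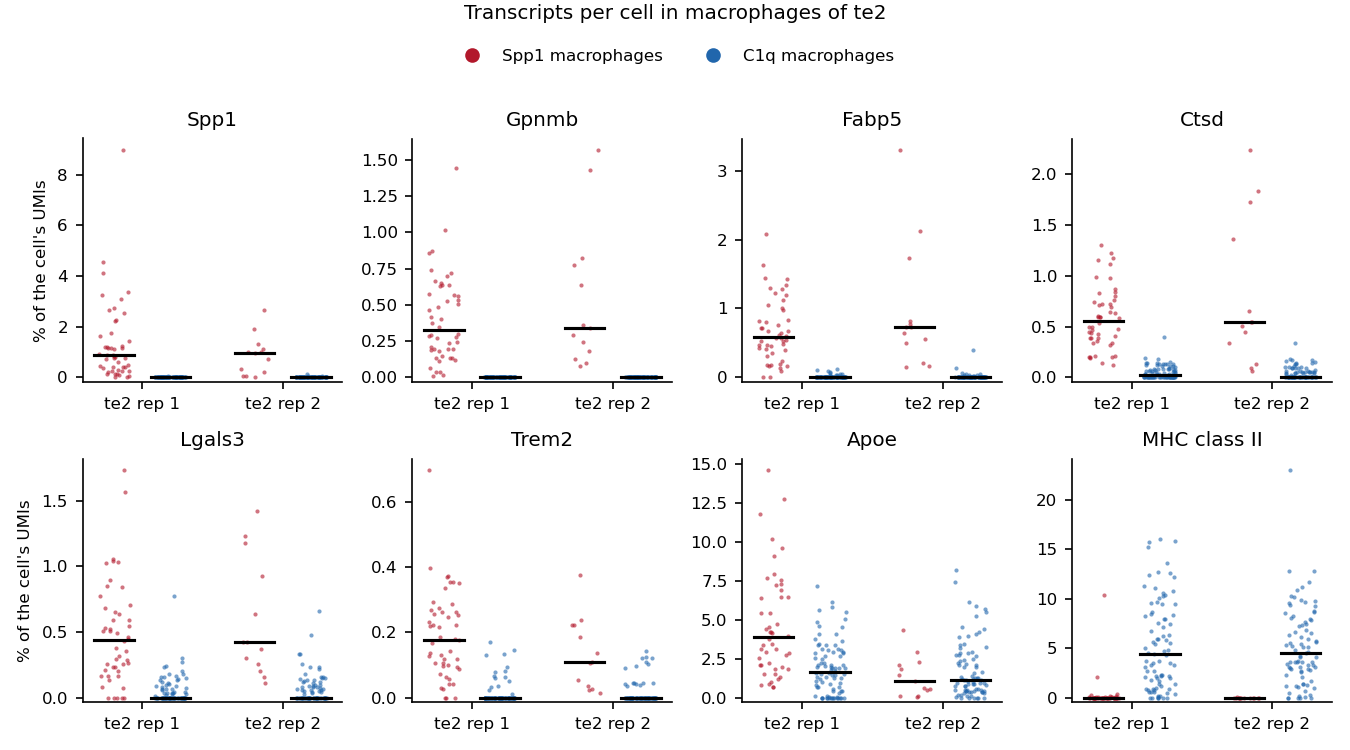
Share of a cell's UMIs taken by each gene (vertical axis, percent, a separate scale in each panel) in Spp1 macrophages (red) and C1q macrophages (blue) of the te2 replicates, 1 point per cell and a bar at the median; MHC class II is the sum of Cd74, H2-Aa, H2-Ab1 and H2-Eb1. The medians of Fabp5, Ctsd, Lgals3 and Trem2 are higher in Spp1 macrophages of both replicates, though single cells of the sets overlap. The median of Apoe over all cells is higher in replicate 1 only, and MHC class II is at 0 in most Spp1 macrophages. In replicate 2 the 6 Spp1 macrophages with 2 or more epithelial UMIs have the lowest shares of Apoe.

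Both te2 libraries held Spp1 macrophages and neither sham library held a cell that met the same thresholds. Among macrophages with at least 2 UMIs of C1q, the share that met the rule was 33.8% in te2 replicate 1 (45 of 133 cells, exact 95% binomial interval 25.9 to 42.5) and 13.5% in te2 replicate 2 (13 of 96, 7.41 to 22). In sham it was 0 of 78, which allows a share of up to 3.85% by a floor of 3 counts and 4.62% by the exact interval, and 0 of 71, which allows up to 4.23% and 5.06%. With counts as deposited, the te2 intervals did not overlap the sham intervals, nor did they overlap each other. These intervals and limits cover counting error only, and with 2 animals against 2 an exact two-sided permutation test cannot go below p = 0.333, so no test was made. Sham macrophages were shallow, with a median of 973 and 785 UMIs against 2512 and 2102.5 in te2. With each cell thinned to 1000 UMIs the shares in te2 were 35.7% (35 of 98, exact interval 26.3 to 46) and 9.38% (6 of 64, 3.52 to 19.3). In sham they were 0 of 34 and 0 of 20, which allow up to 8.82% and 15% by the same floor. The exact intervals in sham reached 10.3% and 16.8%. At this depth the interval of te2 replicate 2 overlapped those of both sham libraries, while that of te2 replicate 1 did not. Spp1 was listed in neither sham table, which keep genes seen in at least 3 cells. Gpnmb was listed in both but had no count in their C1q-positive macrophages. Of all filtered cells, Spp1 macrophages were 2.07% and 0.616% in te2.

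**Figure D2:**
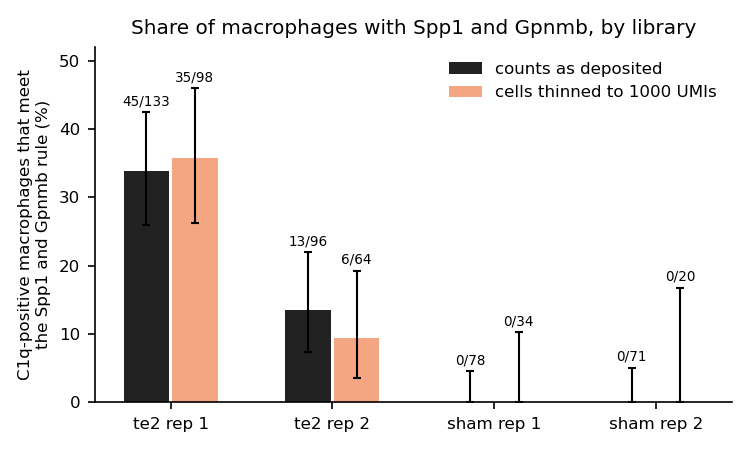
Percentage of C1q-positive macrophages that met the thresholds on Spp1 and Gpnmb in each library (vertical axis from 0), with counts as deposited (black) and after thinning every cell to 1000 UMIs (orange); lines are exact 95% binomial intervals and labels give cells found of cells in all. The te2 bars reach 33.8% and 13.5%, and both sham libraries are at 0.

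Lysosomal genes share a promoter element, the CLEAR-type E-box TCACGTG, which binds the MiT/TFE transcription factors that drive lysosome production. The promoters below are those of members on which the results turn: Ctsd and Gla (alpha-galactosidase A) for the lysosome, Mmp12 (macrophage elastase) among the largest rises, and Spp1 and Gpnmb as the defining genes. Each is the 250 bases before the first start site given by RefSeq on GRCm38.p6, which is an earlier build than the GRCm39 of the counts, and capitals mark matches on either strand to TCACGTG, to the AP-1 element TGACTCA or to GAGGAAGT, a site of the PU.1 type. Ctsd lies at chr7:142387828-142388077 and Gla at chrX:134601006-134601255, both on the minus strand. Mmp12 lies at chr9:7344147-7344396, Spp1 at chr5:104434861-104435110 and Gpnmb at chr6:49036268-49036517, on the plus strand.
Ctsd: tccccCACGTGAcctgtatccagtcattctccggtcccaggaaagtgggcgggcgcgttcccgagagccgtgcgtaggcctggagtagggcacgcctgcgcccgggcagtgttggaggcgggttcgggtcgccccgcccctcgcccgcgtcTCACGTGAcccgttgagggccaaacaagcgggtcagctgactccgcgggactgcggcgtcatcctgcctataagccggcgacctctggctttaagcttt
Gla: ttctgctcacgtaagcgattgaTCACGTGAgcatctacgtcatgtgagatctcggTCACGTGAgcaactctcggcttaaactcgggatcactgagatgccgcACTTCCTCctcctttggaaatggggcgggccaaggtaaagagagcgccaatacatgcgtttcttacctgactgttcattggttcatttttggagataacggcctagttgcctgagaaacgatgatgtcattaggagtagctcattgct
Mmp12: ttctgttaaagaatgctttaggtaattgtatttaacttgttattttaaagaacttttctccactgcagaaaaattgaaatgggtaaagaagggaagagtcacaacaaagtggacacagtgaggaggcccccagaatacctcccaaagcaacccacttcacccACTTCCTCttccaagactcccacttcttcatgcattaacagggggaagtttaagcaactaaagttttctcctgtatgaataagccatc
Spp1: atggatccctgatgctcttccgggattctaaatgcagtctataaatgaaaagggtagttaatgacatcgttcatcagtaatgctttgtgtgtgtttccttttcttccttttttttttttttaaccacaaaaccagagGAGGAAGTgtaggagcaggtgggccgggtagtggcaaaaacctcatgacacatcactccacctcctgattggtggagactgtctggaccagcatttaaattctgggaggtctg
Gpnmb: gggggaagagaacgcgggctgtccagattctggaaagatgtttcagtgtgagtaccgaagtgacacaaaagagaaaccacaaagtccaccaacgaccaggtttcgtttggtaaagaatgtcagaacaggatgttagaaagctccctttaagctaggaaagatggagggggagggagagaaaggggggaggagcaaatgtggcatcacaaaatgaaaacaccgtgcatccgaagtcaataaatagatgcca
The Ctsd and Gla promoters each held 2 places that matched TCACGTG, with overlapping matches on both strands counted once. Those of Mmp12 and Spp1 each held 1 match to GAGGAAGT, which Gla also held, and the Gpnmb promoter held none of the 3 motifs. Mmp12 and Spp1 each have 2 starts in the table, and a match to TGACTCA was found before the other Mmp12 start. TCACGTG was present in 20.6% of 34 promoters of the lysosomal enzyme list and 26.1% of 23 of the list on the proton pump and lysosomal membrane. It was present in none of 31 promoters of the lipid list and in 3.13% of all 32851 promoters. A match is a description of the letters, and binding was not measured.

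The first comparison set Spp1 macrophages against C1q macrophages within te2, to ask what else distinguished the cells chosen by Spp1 and Gpnmb. Counts were summed over the cells of each set and animal and tested with edgeR's quasi-likelihood test with the animal as a block, so levels are counts per 1000000 (CPM) of such a sum, scaled by TMM factors. Of 3832 genes tested, 27 were higher (0.705%) and 38 lower (0.992%) in Spp1 macrophages at a Benjamini-Hochberg FDR of 0.05. The 27 include Spp1 and Gpnmb, which chose the cells, and the markers Fabp5, Ctsd and Lgals3, which were picked from these data, so these 5 are no finding of the test. With the 7 genes of the rule left out of counts and totals, 90 genes passed. Without the cells that carried epithelial UMIs, 240 of 2614 genes were higher (9.18%) and 202 lower (7.73%). The count was not stable to the choice of cells. Without the doublets called by scrublet, which were 1 Spp1 macrophage and 6 C1q macrophages, no gene passed in edgeR (0 genes, 386 at an unadjusted p under 0.05, smallest adjusted p = 0.141). All 24 genes named next kept their direction there. Each of these doublets had at least 2 epithelial UMIs, so the fit without such cells left them out too. The cause of these changes in the count was not tested. Counts are for 2 animals and borrow their spread from all genes.

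The 12 genes with the largest rise, leaving out Spp1 and Gpnmb, were Fabp5, Npy, Syngr1, Atp6v0d2, Mmp12, Il7r, Ctsl, Lhfpl2, Gla, Hpse, Trem2 and Clec4d. Fabp5 reached 7932 and 9097 CPM in Spp1 macrophages against 111 and 69.9 CPM in C1q macrophages. Npy, which encodes neuropeptide Y, had 28 and 36 counts in Spp1 macrophages and none in C1q macrophages, at least 25.1-fold higher. In replicate 1 all macrophages with at least 2 UMIs of C1q held 12 Npy counts. Most of the 28 therefore lay in the 3 Spp1 macrophages with at most 1 UMI of C1q. Ctsl, which encodes the protease cathepsin L, stood at 7301 and 16580 CPM against 337 and 429 CPM. Each of the 3 genes separated the sets in both animals without overlap.

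Mmp12, which degrades elastin, stood at 2311 and 1169 CPM in Spp1 macrophages against 57.5 and 15 CPM in C1q macrophages (log2 fold change 5.65 ± 0.49, standard error; adjusted p = 0.00543, edgeR). Trem2, the lipid receptor, stood at 1787 and 1058 CPM against 78 and 124.8 CPM (3.79 ± 0.50, adjusted p = 0.0144, edgeR). The rise of Ctsl was 4.85 ± 0.50 on the log2 scale (adjusted p = 0.00951, edgeR). These genes were also called higher without the cells with epithelial UMIs, at 5.27, 3.97 and 5.36 on the log2 scale.

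Other genes among the 12 rises of largest size had very few counts in C1q macrophages, so ratios of summed counts are given with exact 95% intervals. Atp6v0d2, a subunit of the vacuolar proton pump that is abundant in osteoclasts and some macrophages, had 111 and 49 counts in Spp1 macrophages and 2 and 1 in C1q macrophages, a ratio of 62.6 (21.1 to 307). Syngr1, a vesicle protein gene, had 62 and 30 against 0 and 1 (108, 18.9 to 4310). Il7r, the interleukin 7 receptor gene, had 54 and 26 against 1 and 2 (31.3, 10.3 to 155). Both animals showed the excess for each of these genes. Gla, which encodes a lysosomal enzyme that splits galactose from glycolipids, had 30 and 20 counts against 2 and 1 (19.6, 6.32 to 98.1). Lhfpl2 had 36 and 26 against 2 and 1 (24.3, 7.93 to 121). Hpse, which encodes heparanase, stood at 139 and 166 CPM against 8.21 and 9.99 CPM (log2 fold change 3.98 ± 0.58), and Clec4d, a C-type lectin receptor gene, at 213.5 and 276 CPM against 28.8 and 4.99 CPM (3.77 ± 0.65).

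The other 13 genes past the threshold, named after their values were seen, were the markers Ctsd and Lgals3, and Mfge8, Pld3, Cd63, Ctsb, Cstb, Txn1, Bhlhe41, Vat1, Cdkn1a, Gyg and H1f2. Ctsd stood at 6034 and 5962 CPM in Spp1 macrophages against 546 and 459 CPM in C1q macrophages, and Lgals3 at 5514 and 5433 CPM against 534 and 714 CPM. Mfge8, which encodes a bridge between dying cells and phagocytes, rose by 3.61 ± 0.47 on the log2 scale and Pld3, which encodes a lysosomal nuclease, by 3.50 ± 0.44. Among the smaller rises were Ctsb (cathepsin B, 2.41 ± 0.41), its inhibitor Cstb (2.27 ± 0.38), the lysosomal membrane gene Cd63 (2.31 ± 0.37) and the thioredoxin gene Txn1 (2.20 ± 0.38).

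The 12 falls of largest size were led by products of recruited and of resident macrophages. Retnla, which encodes a secreted protein of alternatively activated macrophages, had 1 and 0 counts in Spp1 macrophages against 1228 and 1555 in C1q macrophages, a ratio of 2370 in favour of C1q macrophages (95% interval 425 to 93600). Ccr2, the chemokine receptor that brings monocytes into tissue, had no count in Spp1 macrophages and 164 and 128 in C1q macrophages, at least 82.9-fold lower. The lectin gene Mgl2 (157 and 107 counts in C1q macrophages) was at least 74.9-fold lower. In both animals these transcripts were nearly absent from Spp1 macrophages.

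No count in Spp1 macrophages was found either for Fcna, C4b, Prg4, Ighm, Ednrb, Ccl24 or Igfbp4, which were at least 48.8-, 45.7-, 34.1-, 28.4-, 22.7-, 18.4- and 17.6-fold lower. C4b encodes a complement component, Ighm the heavy chain of immunoglobulin M, Ednrb an endothelin receptor and Ccl24 a chemokine. Folr2, a folate receptor gene of resident macrophages, and Clec10a, a lectin gene, had 1 and 0 counts each in Spp1 macrophages. In C1q macrophages Folr2 had 195 counts over both animals, a ratio of 166 (29.5 to 6590), and Clec10a 177, a ratio of 151 (26.7 to 5990).

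**Figure D3:**
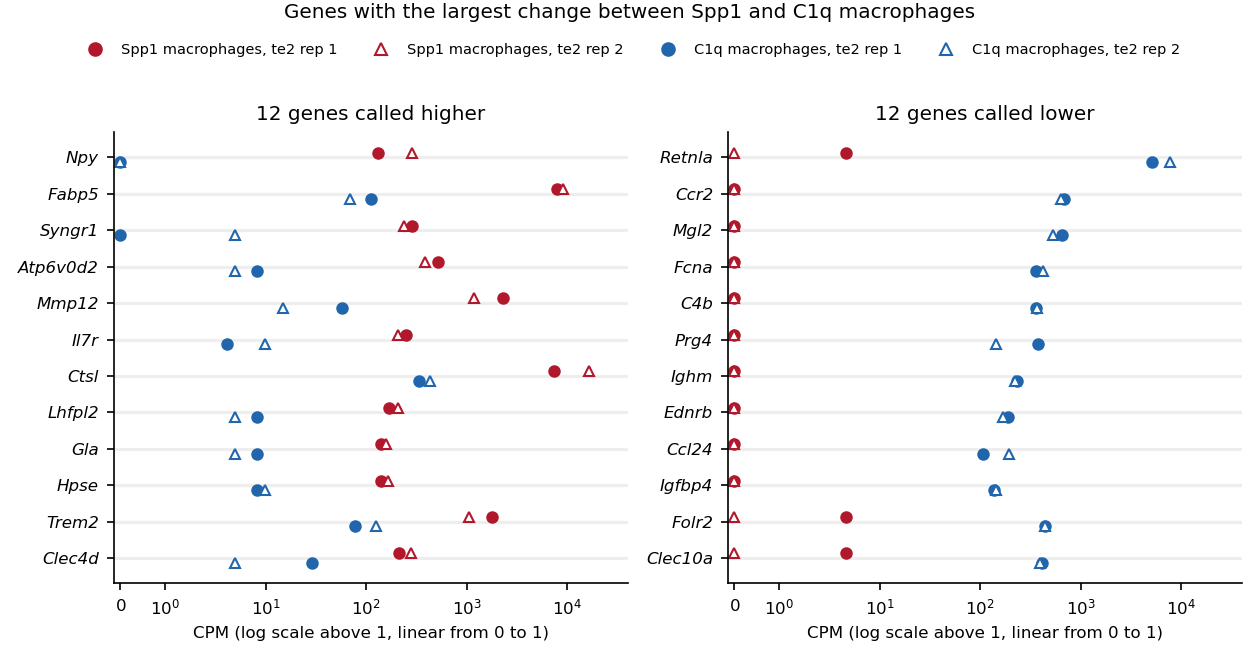
Levels of the 12 genes with the largest rise (left) and the 12 with the largest fall (right) in CPM (horizontal axis, logarithmic above 1 and linear from 0 to 1), for Spp1 macrophages (red) and C1q macrophages (blue) of te2 replicate 1 (circles) and replicate 2 (triangles). The sets do not overlap for any of the 24 genes, and 9 of the 12 falling genes are at 0 in both replicates of the Spp1 macrophages.

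Lipid genes were next, since the cells take their name from them. Of the 33 genes of the list on lipid uptake, storage and export, 19 passed the filter on low counts, 2 were called higher (Trem2 and the marker Fabp5) and 0 lower, and the median log2 fold change was 1.12, against -0.03 over all genes tested. Since a gene high in 1 set alone can pass the filter, such counts and medians describe the lists. Without the epithelial cells 11 of 17 were called higher and 1 lower. Of the 19, 18 lay above 0. Among uptake genes, Msr1, a scavenger receptor gene, stood at 269 and 150 CPM in Spp1 macrophages against 73.9 and 39.9 CPM in C1q macrophages (log2 fold change 1.87 ± 0.42, adjusted p = 0.0946, edgeR). Cd36, the fatty acid scavenger receptor gene, stood at 195 and 221 against 148 and 165 CPM (0.41 ± 0.40), and Lpl, the lipoprotein lipase gene, at 1044 and 213 against 448 and 449 CPM (0.14 ± 0.60).

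Among storage and export genes, Plin2, which coats lipid droplets, stood at 385 and 521 CPM in Spp1 macrophages against 115 and 115 CPM in C1q macrophages (1.95 ± 0.41, adjusted p = 0.0723; 2.31 and 4.84e-06 without epithelial cells, edgeR). Soat1, which esterifies cholesterol, stood at 557 and 403 against 111 and 105 CPM (2.14 ± 0.41, adjusted p = 0.0579, edgeR), and Lipa, the lysosomal acid lipase, at 821.5 and 474 against 131 and 170 CPM (2.07 ± 0.45, adjusted p = 0.0862, edgeR). Both animals were higher in Spp1 macrophages for all 3 genes. The cholesterol exporters Abca1 (868 and 253 against 205 and 160 CPM) and Abcg1 (213.5 and 244.8 against 53.4 and 54.9 CPM) had log2 fold changes of 1.41 ± 0.48 and 2.06 ± 0.42. Without epithelial cells Soat1, Lipa, Abca1, Abcg1 and Msr1 passed the test.

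Fabp4, another fatty acid carrier, stood at 464 and 300.1 CPM in Spp1 macrophages against 73.9 and 4.99 CPM in C1q macrophages (3.53 ± 0.68, adjusted p = 0.0587, edgeR). Apoe, the carrier of cholesterol out of macrophages, split the animals over all cells, with 39330 CPM against 11770 in replicate 1 and 10490 against 15530 in replicate 2 (0.59 ± 0.66). In replicate 2 the 6 Spp1 macrophages with 2 or more epithelial UMIs held 61.7% of the UMIs of their set and had the lowest shares of Apoe. The part of epithelial RNA in this split was not tested. Pltp, the phospholipid transfer protein gene, lay the other way, at 288 and 111 CPM against 788.5 and 969 CPM (-2.22 ± 0.51, adjusted p = 0.0985; -2.08 and 8.96e-05 without epithelial cells, edgeR). Mgll, which splits monoglycerides, had 19 counts in Spp1 macrophages and none in C1q macrophages, at least 7.44-fold higher, but too few for the test. Hilpda, a lipid droplet gene, had 13 against 1 (15.3, 2.29 to 649).

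Of the 28 genes of the signature list of lipid-associated macrophages, 24 were tested, 7 were called higher and 0 lower, with a median of 1.83, and 17 of 24 were called higher without epithelial cells. The 7 were Ctsl, Trem2, Mmp12, Cd63, Syngr1 and the markers Fabp5 and Lgals3. That list shares Fabp5, Trem2, Plin2, Lipa, Fabp4, Lpl, Cd36 and Apoe with the lipid list, and some of its genes were named for these cells from these data, so it is not separate evidence. Cd9, a surface tetraspanin gene of the signature, stood at 752 and 569 CPM in Spp1 macrophages against 246 and 240 CPM in C1q macrophages (1.43 ± 0.38, adjusted p = 0.155; 2.21 and 6.52e-06 without epithelial cells, edgeR). Clec7a, the receptor for fungal glucan, stood at 436 and 355 against 61.6 and 110 CPM (2.25 ± 0.47, adjusted p = 0.0723, edgeR). Axl (-0.32 ± 0.73) and Igf1 (-0.06 ± 0.76) were at similar levels with wide errors.

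Lysosomal enzymes digest what the cells take up. Of 36 lysosomal enzyme genes, 31 were tested, 4 were called higher (Ctsl, Ctsb, Gla and the marker Ctsd) and 0 lower, with a median log2 fold change of 1.09. Without epithelial cells 17 of 31 were called higher and 1, the protease gene Ctsc, lower. Per cell the list took a median of 4.77% and 3.97% of UMIs in Spp1 macrophages and 1.58% and 1.38% in C1q macrophages. Enzymes of lipid breakdown were among those that passed only without epithelial cells. Pla2g15, the lysosomal phospholipase A2, stood at 241 and 142 CPM against 45.2 and 30 CPM (2.33 ± 0.44, adjusted p = 0.057; 2.41 and 0.000122 without epithelial cells, edgeR). Psap, the precursor of the saposins that present sphingolipids to enzymes, stood at 7087 and 4225 against 1606 and 1673 CPM (1.74 ± 0.42). Hexa, a subunit of hexosaminidase, stood at 599 and 711 against 218 and 290 CPM (1.38 ± 0.37).

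Some lysosomal enzymes did not share the shift. Ctsh, a cathepsin gene, stood at 640.5 and 466 CPM in Spp1 macrophages against 575 and 719 CPM in C1q macrophages (-0.23 ± 0.39), Man2b1, the lysosomal mannosidase gene, at 306 and 118 against 324 and 524 CPM (-1.04 ± 0.56), and Ctsc at 571 and 126 against 756 and 809 CPM (-1.44 ± 0.59). None of these 3 passed the test over all cells.

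The list on the vacuolar proton pump and the lysosomal membrane had 26 of 28 genes tested, 2 called higher (Atp6v0d2 and Cd63) and 0 lower, and a median of 0.87. Without epithelial cells 12 of 26 were called higher. Subunits of the pump's membrane part and of its catalytic part lay above 0. Atp6v0c, of the membrane ring, stood at 1508 and 1327 CPM in Spp1 macrophages against 505 and 529 CPM in C1q macrophages (1.45 ± 0.36, adjusted p = 0.125, edgeR). Atp6v1a, the catalytic subunit, stood at 362 and 300.1 against 107 and 105 CPM (1.64 ± 0.41), and Atp6v1c1 at 167 and 150 against 28.8 and 35 CPM (2.31 ± 0.46, adjusted p = 0.0615, edgeR). The excess held in both animals for these subunits. Slc15a3, a peptide transporter of the lysosome, stood at 343.5 and 189.5 against 32.9 and 64.9 CPM (2.45 ± 0.56). Lamtor2, of the complex that anchors mTORC1 to the lysosome, stood at 446 and 466 against 493 and 424 CPM (-0.01 ± 0.37).

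The factors that bind TCACGTG were sparse. Of 10 MiT/TFE factors and their partners 5 were tested and none was called in either direction. Mitf had 13 and 12 counts over both animals in Spp1 and C1q macrophages, Tfec 5 and 4, and Tfeb 1 and 4, all too few for the test. Tfe3 stood at 46.4 and 7.9 CPM against 65.7 and 54.9 CPM (-1.14 ± 0.76). Fnip2, a partner of the folliculin complex that holds these factors back, stood at 148.5 and 134 CPM against 24.6 and 4.99 CPM (3.20 ± 0.63, adjusted p = 0.0615; 3.65 and 1.75e-05 without epithelial cells, edgeR).

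**Figure D4:**
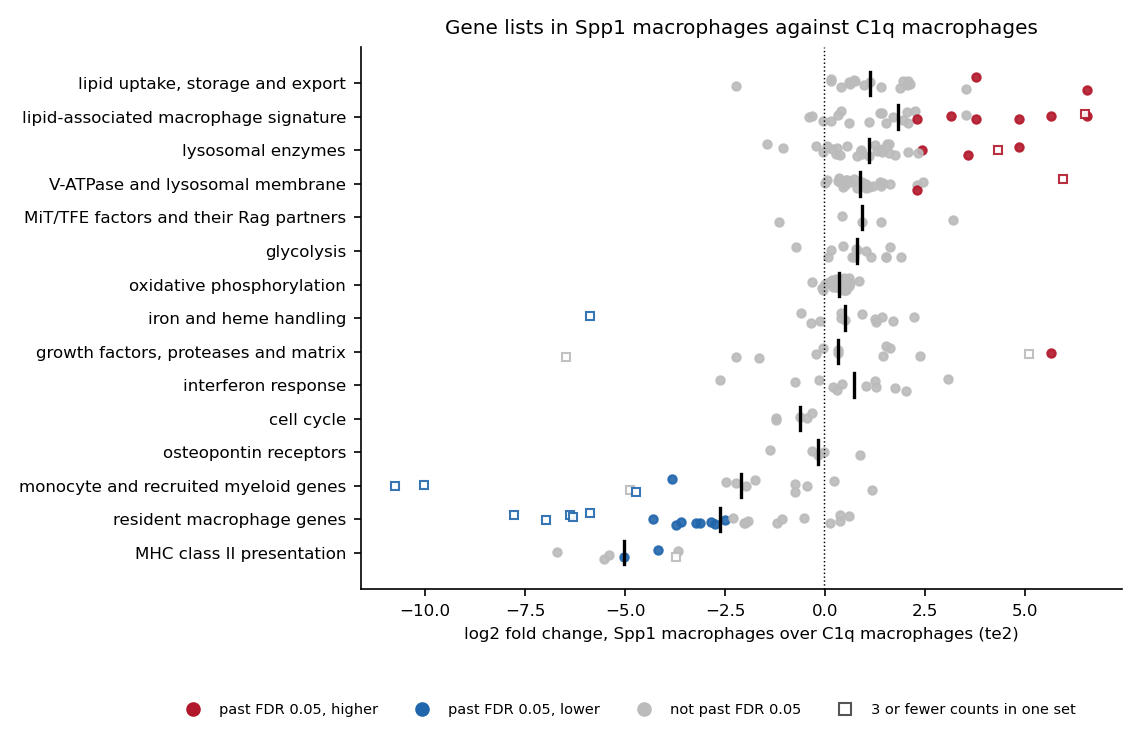
Log2 fold change of Spp1 macrophages over C1q macrophages (horizontal axis) for each tested gene of 15 lists, 1 symbol per gene, with a bar at each list's median and a dotted line at the median of all genes tested. Red and blue pass FDR 0.05, grey do not, and open squares have 3 or fewer counts in one set, so their fitted values are not bounds; lipid and lysosomal lists lie to the right with medians of 0.87 to 1.83, and resident macrophage and MHC class II lists to the left with medians of -2.63 and -5.03.

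Antigen presentation by MHC class II, which displays peptides to helper T cells, was the list with the lowest median. All 7 tested genes of 9 lay below 0, 2 were called lower (H2-DMa, and H2-Ab1 at an adjusted p of 0.05 by edgeR, just inside the threshold) and 0 higher, with a median of -5.03. Without epithelial cells 7 of 7 were called lower. H2-Aa stood at 418 and 15.8 CPM in Spp1 macrophages against 5486 and 7259 CPM in C1q macrophages (-5.52 ± 1.10, adjusted p = 0.0646; -5.16 and 9.05e-07 without epithelial cells, edgeR). Cd74, the invariant chain, stood at 1197 and 7.9 against 21060 and 26440 CPM (-6.70 ± 1.61, adjusted p = 0.118; -6.16 and 0.00031 without epithelial cells, edgeR). Ciita, the regulator that switches these genes on, had 3 counts against 52, a ratio of 14.8 in favour of C1q macrophages (4.78 to 73.9). At least 1 UMI of Cd74, H2-Aa, H2-Ab1 or H2-Eb1 was found in 15 of 48 and 4 of 13 Spp1 macrophages, against 80 of 86 and 78 of 83 of the shallower C1q macrophages. In replicate 1 a single Spp1 macrophage gave 10.4% of its UMIs to these genes, while the median was 0 in both replicates. That cell sat at the limit of the rule, with 3 UMIs of Spp1 and Gpnmb (0.1004% of its UMIs). Its 180 Cd74 and 51 H2-Aa counts were more than those of the other Spp1 macrophages of replicate 1 together.

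Genes of resident tissue macrophages were lower. Of 26, 24 were tested, 13 were called lower and 0 higher, with a median of -2.63, and 18 were called lower without epithelial cells. Besides Folr2 and Igfbp4, Lyve1, a hyaluronan receptor gene, had 1 count against 137 (ratio 117 in favour of C1q macrophages, 20.6 to 4640) and Cd163, the haemoglobin scavenger receptor gene, 1 against 88 (74.9, 13.1 to 2990). Ltc4s, the leukotriene C4 synthase gene, had 1 against 126 (107, 18.9 to 4270). F13a1, a clotting factor gene of macrophages, stood at 74.3 and 63.2 CPM in Spp1 macrophages against 928 and 919 CPM in C1q macrophages (-3.73 ± 0.42, adjusted p = 0.012, edgeR). The mannose receptor gene Mrc1 stood at 162 and 71.1 against 1014 and 1108 CPM (-3.22 ± 0.48), and Cx3cr1, the fractalkine receptor gene, at 13.9 and 15.8 against 181 and 195 CPM (-3.61 ± 0.52). Tmem176b (-4.30 ± 0.45), Hpgd (-3.12 ± 0.49), Gas6 (-2.86 ± 0.48), Tmem176a (-2.76 ± 0.42) and Pf4 (-2.50 ± 0.38) complete the 13.

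Csf1r, also on the resident list, was not among the calls. It stood at 362 and 86.9 CPM against 669 and 899 CPM (-1.99 ± 0.63, adjusted p = 0.241, edgeR). As a description, Cd68 stood at 1323 and 908 CPM in Spp1 macrophages against 255 and 414 CPM in C1q macrophages, Lyz2 at 10900 and 5970 against 4694 and 6161 CPM, and C1qa at 1119 and 308 against 1856 and 2901 CPM. Tyrobp, which is also the signalling partner of Trem2, stood at 4734 and 2614 against 2070 and 2541 CPM (0.62 ± 0.44).

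Of 22 monocyte and recruited myeloid genes 14 were tested, 4 were called lower (Retnla, Ccr2, Ifitm6 and S100a4) and 0 higher, with a median of -2.10. S100a4, a calcium-binding protein gene of migrating cells, stood at 23.2 and 7.9 CPM against 213.5 and 295 CPM (-3.82 ± 0.59). Others did not pass, and 2 of the 14 lay above 0. Thinned to 1000 UMIs, Ccl6, a chemokine gene, was found in 32 of 45 and 5 of 12 Spp1 macrophages, against 46 of 72 and 36 of 62 C1q macrophages. The eosinophil-type ribonuclease gene Ear2 had 1 count against 46 (39.2, 6.69 to 1580). Among 4 tested dendritic cell genes, Clec10a and Batf3 (2 counts against 62, ratio 26.4 in favour of C1q macrophages, 7.01 to 223) were called lower.

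The uptake of dying cells, a task these cells are known for elsewhere, showed no common direction. Of 18 tested genes of efferocytosis and Fc receptors, 2 were called higher (Trem2 and Mfge8) and 1 lower (Gas6), with a median of -0.03. Lrp1, a receptor for lipoproteins and dying cells, stood at 511 and 197 CPM in Spp1 macrophages against 185 and 210 CPM in C1q macrophages (0.73 ± 0.50). Stab1, a scavenger receptor gene, stood at 74.3 and 31.6 against 226 and 324.5 CPM (-2.31 ± 0.54, adjusted p = 0.11, edgeR).

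Secreted factors were few. Of 7 tested cytokine and chemokine genes, 1 was called lower and 0 higher. That was Ccl8, a chemokine gene, at 200 and 174 CPM in Spp1 macrophages against 1043 and 834 CPM in C1q macrophages (-2.32 ± 0.38, adjusted p = 0.0343, edgeR). Arg1, the arginase gene, stood at 608 and 71.1 against 144 and 15 CPM (2.11 ± 0.46, adjusted p = 0.0834, edgeR). Of 13 tested growth factor, protease and matrix genes 1, Mmp12, was called higher and 0 lower. Vegfa, the vascular growth factor gene, had 34 counts against 1 (39.9, 6.7 to 1620), Adam8, a surface protease gene, stood at 167 and 94.8 against 24.6 and 25 CPM (2.37 ± 0.53), and Mmp9 had 0 counts against 25, at least 7.1-fold lower.

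Receptors for osteopontin were measured at low levels, and 0 of 5 tested were called. Cd44 stood at 88.2 and 39.5 CPM in Spp1 macrophages against 69.8 and 94.9 CPM in C1q macrophages (-0.33 ± 0.56). The integrin genes Itgb1 (501 and 316 against 423 and 399 CPM, -0.04 ± 0.38), Itgav (27.9 and 71.1 against 41.1 and 64.9 CPM, -0.18 ± 0.61) and Itga4 (116 and 23.7 against 177 and 170 CPM, -1.38 ± 0.57) lay at or below 0, and Itgb5 (288 and 86.9 against 57.5 and 145 CPM, 0.87 ± 0.73) above it. The animals overlapped between sets for Cd44, Itgb1, Itgav and Itgb5.

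Metabolic lists held few calls over all cells. Of 14 tested glycolysis genes 0 were called and 13 lay above 0, with a median of 0.79, and 7 of 13 were called higher without epithelial cells. Aldoa, an aldolase gene, stood at 1518 and 853 CPM in Spp1 macrophages against 370 and 429 CPM in C1q macrophages (1.52 ± 0.42), Pgam1 at 427 and 340 against 115 and 155 CPM (1.52 ± 0.42) and the pyruvate kinase gene Pkm at 682 and 592 against 308 and 270 CPM (1.14 ± 0.37). Oxidative phosphorylation genes had 0 of 26 called and a median of 0.36. Of 13 tested iron and heme genes 0 were called higher and 1 lower, Cd163. The ferritin heavy chain gene Fth1 stood at 65010 and 42940 against 9486 and 13370 CPM (2.23 ± 0.53, adjusted p = 0.116, edgeR), and the peroxiredoxin gene Prdx1 at 2506 and 2266 against 957 and 809 CPM (1.44 ± 0.36).

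Of 3 tested osteoclast genes 1, Atp6v0d2, was called higher and 0 lower. Acp5, the tartrate-resistant phosphatase gene, stood at 195 and 126 CPM in Spp1 macrophages against 28.8 and 84.9 CPM in C1q macrophages (1.61 ± 0.59, adjusted p = 0.32; 2.09 and 0.000988 without epithelial cells, edgeR). Interferon response genes had 0 of 12 called, with Isg15 at 97.5 and 355 CPM in Spp1 macrophages against 53.4 and 59.9 CPM in C1q macrophages (1.75 ± 0.53) and Ifi27l2a at 74.3 and 253 against 801 and 954 CPM (-2.63 ± 0.49, adjusted p = 0.0565, edgeR). Cell cycle genes had 0 of 5 called and a median of -0.62. The proliferation genes Mki67 and Top2a were found in 3 of 48 and 1 of 13 Spp1 macrophages against 10 of 86 and 5 of 83 C1q macrophages. The stress list had 0 of 9 called, with Atf3 at 302 and 340 against 86.2 and 59.9 CPM (2.12 ± 0.44, adjusted p = 0.072; 2.30 and 2.72e-05 without epithelial cells, edgeR). Among steroid and prolactin receptors the glucocorticoid receptor gene Nr3c1 stood at 83.6 and 63.2 against 140 and 185 CPM (-1.10 ± 0.44), and Prlr at 27.9 and 142 against 103 and 35 CPM (0.06 ± 0.89). Prlr is abundant in prostate epithelium, and the sets overlapped.

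The 61 cells differed widely among themselves in both defining transcripts. Spp1 took between 0.0187% and 8.98% of a cell's UMIs in replicate 1 and between 0.0222% and 2.68% in replicate 2, and Gpnmb between 0.0127% and 1.45% and between 0.0783% and 1.57%. Within replicate 1 the 2 genes were weakly ordered alike (Spearman rho 0.164 over 48 cells), and within replicate 2 more so (0.549 over 13 cells). Gpnmb and Ctsd had a rho of 0.363 and 0.945. These values are over cells of 1 library each, which share free RNA, and carry no test. Depth differed between the cells, from 592 to 21406 UMIs in replicate 1 and from 893 to 15328 in replicate 2. In replicate 2 the 6 Spp1 macrophages with 2 or more epithelial UMIs had the lowest shares of Gpnmb, of Ctsd and of Apoe. The part of epithelial RNA in these values was not tested. Trem2 was found in 45 of 48 and 13 of 13 Spp1 macrophages, against 15 of 86 and 16 of 83 of the shallower C1q macrophages. Thinned to 1000 UMIs, it was found in 33 of 45 and 6 of 12 Spp1 macrophages and in 8 of 72 and 7 of 62 C1q macrophages, with 0% and 0.166% in te2 cells that were neither. Apoe split the animals also per cell, with a median of 3.87% of UMIs per cell in replicate 1 and 1.05% in replicate 2, against 1.66% and 1.15% in C1q macrophages. These medians are over all cells, and in replicate 2 the Spp1 macrophages below 1.05% were those with 2 or more epithelial UMIs.

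The second comparison took all macrophages with at least 2 UMIs of C1q, whatever their Spp1, and set te2 (133 and 96 cells) against sham (78 and 71 cells). It asked how far the presence of Spp1 macrophages showed in the macrophage pool as a whole. Both comparisons use the same te2 cells, so agreement between them is not separate evidence. In bulk sums of this kind, more Spp1 macrophages and more RNA per cell cannot be told apart. Epithelial transcripts also differed between the groups. Cells with 2 or more epithelial UMIs were 19.6% and 20.8% of these macrophages in te2 and 6.41% and 8.45% in sham. The part of these transcripts in the calls below was not tested. Of 3902 genes tested, 120 were higher (3.08%) and 130 lower (3.33%) in te2 (edgeR, FDR 0.05). With library totals in place of TMM factors they were 176 and 116, and with cells thinned to 1000 UMIs 15 of 936 genes passed. Left out in turn, te2 replicate 1 and te2 replicate 2 gave 104 and 125 genes.

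The markers picked from these data, given as a description, were high in the te2 pool. Fabp5 stood at 3185 and 3512 CPM in te2 against 61.4 and 0 CPM in sham (log2 fold change 6.47 ± 0.49). Ctsd stood at 2705 and 2551 against 509 and 341 CPM (2.60 ± 0.31), and Lgals3 at 2470 and 2503 against 474 and 440.3 CPM (2.44 ± 0.30). Among genes that were not so picked, Ctsl rose by 4.95 ± 0.45, Trem2 by 4.30 ± 0.49, Mmp12 by 5.07 ± 0.60, Cd63 by 2.32 ± 0.31, Ctsb by 2.23 ± 0.30 and Cd9 by 2.99 ± 0.41. Te2 and sham did not overlap for any of these genes. Atp6v0d2 had 154 counts in te2 and none in sham, at least 4.37-fold higher against the 1 sham table that lists it. Gpnmb, as a description, had 1256 counts in te2 and none in sham, at least 97.7-fold higher.

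The list of lipid-associated macrophages had 14 of 24 tested genes called higher in te2 and 0 lower, with a median of 1.38 against -0.004 over all genes. The lipid list had 6 of 19 called higher and 0 lower, among them Plin2 (215 and 268 CPM against 79 and 114 CPM, 1.37 ± 0.37) and Apoe (1.58 ± 0.36). Lysosomal enzymes had 4 of 32 higher and 1 lower, the ganglioside activator gene Gm2a (-1.11 ± 0.28). The proton pump and lysosomal membrane list had 6 of 26 higher and 0 lower, with Atp6v0c at 866 and 825 against 237 and 369 CPM (1.52 ± 0.31) and Lamp1 at 988 and 1060 against 474 and 597 CPM (0.95 ± 0.28).

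These rises were smaller once the Spp1 macrophages were taken out. With te2 cells above 2 UMIs of Spp1 and Gpnmb left out, an alternative chosen after the data were seen, 28 of 2964 genes passed in place of 250 of 3902. The log2 fold change of te2 over sham was then 1.24 for Fabp5, 0.18 for Ctsd, 0.40 for Lgals3, 1.28 for Ctsl (adjusted p = 0.154), 0.74 for Ctsb (0.208), 0.94 for Cd63 (0.191) and 1.57 for Trem2 (0.249), by edgeR. The rise of Cd9 passed the test also in these cells (2.25, adjusted p = 0.02, edgeR). Cd9 was more common in cells outside both macrophage groups, which include epithelium. After thinning to 1000 UMIs it was found in 41.0% and 43.7% of them in te2 and 11.8% and 11.1% in sham. In te2 C1q macrophages it was found in 16.7% and 16.1%, and in sham C1q macrophages in 2.63% (1 of 38) and 14.3% (3 of 21). Before thinning the sham C1q macrophages held 5 and 4 Cd9 counts. The part of epithelial transcripts in this rise was not tested. The genes followed were high in the cells left out, which by itself makes the rises smaller. The te2 sums also fell from 499929 and 318806 UMIs to 231415 and 194089. The difference between the fits with and without the cells left out was not tested.

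Genes low in Spp1 macrophages did not all fall in the pool. H2-Aa stood at 2940 and 4385 CPM in te2 against 4720 and 5198 CPM in sham (-0.44 ± 0.31), and 0 of 7 MHC class II genes were called. Of 24 resident macrophage genes 1 was called higher and 2 lower, with a median of -0.10. Those lower included Cx3cr1, at 96.8 and 123.5 against 360 and 1108 CPM (-2.68 ± 0.39), and Csf1r, at 484 and 575 against 921 and 1335 CPM (-1.08 ± 0.28). Retnla stood at 2596 and 4683 CPM in te2 against 42570 and 7542 CPM in sham (-2.79 ± 0.54, adjusted p = 0.00287, edgeR), and Ear2 at 49.4 and 69.3 against 948 and 185 CPM (-3.37 ± 0.46). The sham animals differed widely in both genes. Ccl8 went against the pattern of the Spp1 macrophages, at 587 and 569 CPM in te2 against 105 and 128 CPM in sham (2.33 ± 0.34). Without te2 cells above 2 UMIs of Spp1 and Gpnmb its rise was 2.98 (adjusted p = 0.000725, edgeR). Without them Ear2 was also called (-2.54, adjusted p = 0.0415, edgeR), while Csf1r (-0.56, adjusted p = 0.418), Cx3cr1 (-1.96, adjusted p = 0.0563) and Retnla (-2.01, adjusted p = 0.133) were not by edgeR.

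Levels of 4 genes, scaled by totals alone, show the 3 sets side by side. Ctsd was at 5472 and 6054 CPM in Spp1 macrophages, at 575 and 474 CPM in te2 C1q macrophages and at 478 and 344 CPM in sham C1q macrophages. Lipa was at 745 and 481, at 138 and 175, and at 198 and 158 CPM in the same sets. Soat1 was at 505 and 409, at 117 and 108, and at 115 and 244 CPM. Ctsl was at 6621 and 16830, 354 and 443, and 189.5 and 86.1 CPM. All 4 genes stood highest in Spp1 macrophages of both animals. Ctsl also stood higher in te2 than in sham C1q macrophages, but that step did not pass the test (1.28 on the log2 scale, adjusted p = 0.154, edgeR). Steps between te2 and sham C1q macrophages are those of the fit without Spp1 macrophages given above.

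**Figure D5:**
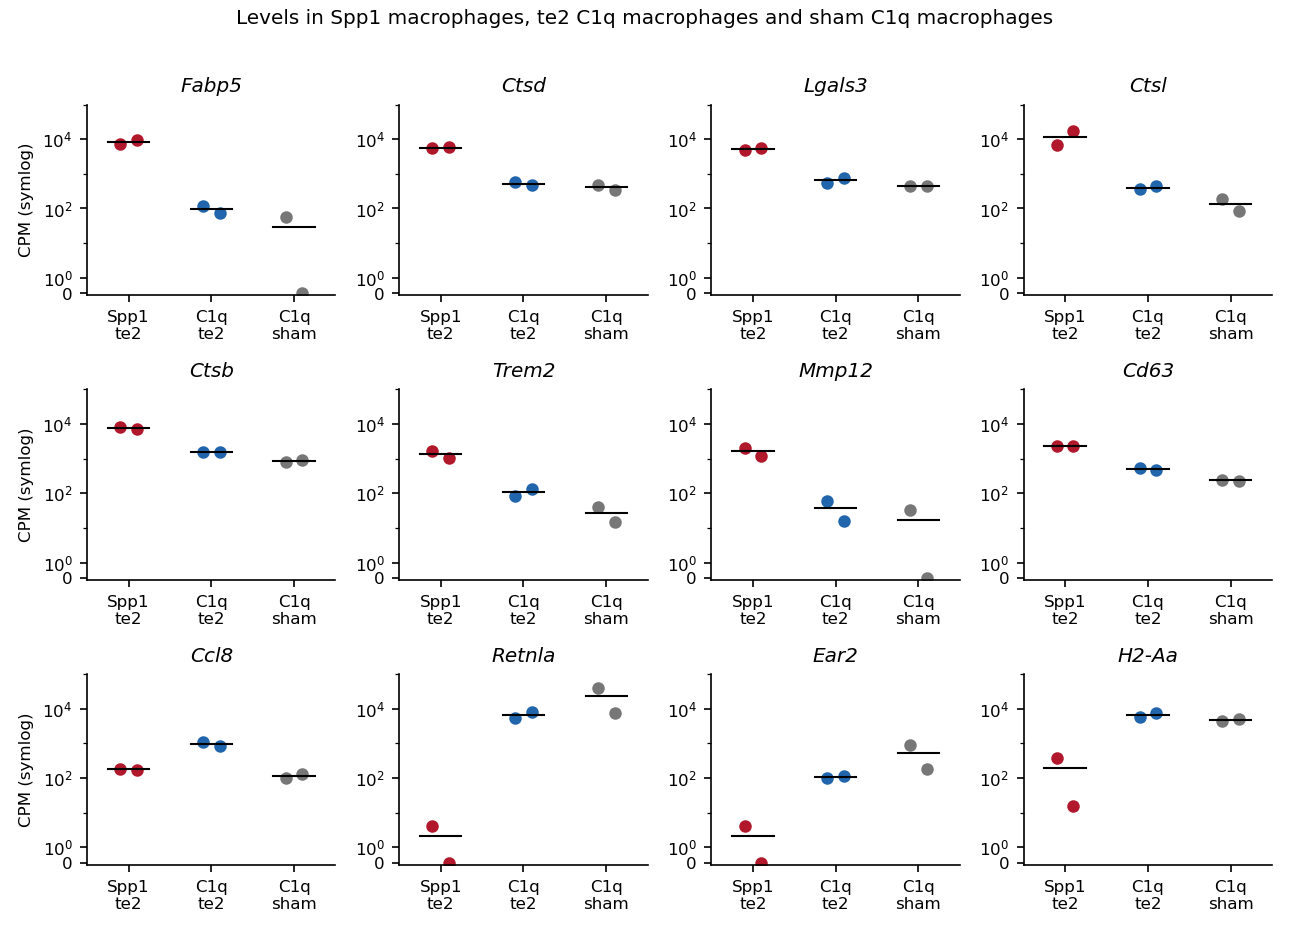
Levels in CPM scaled by totals (vertical axis, logarithmic above 1 and linear from 0 to 1) of 12 genes in Spp1 macrophages of te2 (red), C1q macrophages of te2 (blue) and C1q macrophages of sham (grey), with a point for each of 2 animals, replicate 1 on the left, and a bar at their mean. Ctsd, Lgals3, Ctsl, Ctsb and Trem2 are highest in the Spp1 macrophages, Ccl8 is highest in te2 C1q macrophages, and Retnla, Ear2 and H2-Aa are lowest in the Spp1 macrophages.

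Some of these transcripts were also compared with other myeloid cells of te2 (20 and 10 cells). Those cells had at least 3 UMIs of Retnla, Ccl6 and Fn1, at least 3 of Lyz2 and Cd68, at most 1 of C1q and at most 2 of Spp1 and Gpnmb. Fabp5 was at 74.9 and 24.1 CPM there, against 7194 and 9237 CPM in Spp1 macrophages on the same scale, and Trem2 was at 0 in both libraries, against 1621 and 1074 CPM. Lgals3 was at 862 and 1323 CPM against 5001 and 5516 CPM, and Psap lay nearer, at 3634 and 3246 CPM against 6428 and 4290 CPM. For both Lgals3 and Psap these myeloid cells stood above the levels of te2 C1q macrophages given earlier, which were scaled by TMM factors. Te2 cells that were neither C1q-positive nor Spp1 macrophages had Spp1 or Gpnmb, each gene taken alone, in 0.166% to 0.609% of cells after thinning to 1000 UMIs.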

How the data were processed

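Single-cell RNA was measured in 2 te2 and 2 sham libraries. The authors deposited a table of raw UMI counts per gene and cell for each library, which keeps genes seen in at least 3 cells; a gene missing from a table was entered as 0. kallisto 0.46.1, bustools 0.39.4, R 4.3.2, Seurat 5.0.1 and GRCm39 are named per the submitters' processing notes, with no role given. Cells with 500 or more UMIs and at most 20% mitochondrial counts were kept. Median depth per library was taken over cells, and binomial intervals are exact (Clopper-Pearson, 95%), with a floor of 3 counts for shares and levels of 0.

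Counts were summed per library and cell set and tested in R 4.3.3 with edgeR 4.0.16 (quasi-likelihood, TMM factors, filterByExpr, Benjamini-Hochberg FDR 0.05), which was tested on simulated data. DESeq2 1.42.0 was an alternative, and doublets were called with scrublet in scanpy 1.11.5. Spp1 and C1q macrophages of a library come from the same animal, so the animal was a block, although deviations of the paired sums correlated at -0.283. Genes with 3 or fewer counts in a set are given as ratios or bounds, not fitted values. Named genes were the 12 rises and 12 falls of largest size among calls whose log2 CPM averaged 5 or more and whose direction was shared by both libraries, the markers Fabp5, Ctsd and Lgals3, and leading members of the lists. Members and lists were chosen with earlier results of these data known. No batch is given in the labels.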

Additional observations from a re-analysis of the deposited data

How the results depend on the processing

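The count of 65 genes between Spp1 and C1q macrophages moved most with the choice of cells. It was 442 without cells with epithelial UMIs, 108 with cells thinned to 1000 UMIs, 21 with library totals alone, 236 with no filter on low counts, 142 with no replicate block, and 0 without scrublet doublets (edgeR, 386 at an unadjusted p under 0.05), while DESeq2 called 56 with all cells. With 1 sum left out at a time, in fits with no replicate block where the lone sum is assumed to vary like the others, it ranged from 79 (without the C1q macrophages of te2 replicate 2) to 450 (without the Spp1 macrophages of te2 replicate 1). Of the 24 genes named by size, 10 passed with totals alone, 14 of 15 with a value after thinning and 0 without scrublet doublets, all in the same direction. Totals alone put the median of all genes at -0.15, against -0.03 with TMM factors. The strict threshold gave a share of 25.56% of C1q-positive macrophages in te2 replicate 1.

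For te2 against sham the count of 250 was 15 after thinning, 114 without scrublet doublets, 136 without cells with epithelial UMIs, 55 by DESeq2 and 28 without cells above 2 Spp1 and Gpnmb UMIs, an alternative chosen after the data were seen. With 1 library left out it ranged from 104 (without te2 replicate 1) to 307 (without sham replicate 2). The replicate block, whose numbers do not pair animals (correlation -0.005), gave 300. The cause of these changes was not tested. No gene named with a tested value turned direction while called. The depth limits are 61 cells in 2 animals, and shallow sham cells.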
